A study of Mus musculus with 2 samples.

Results

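In embryonic mouse midbrain, the widest accessible regions were taken to be the 1144 autosomal hotspots of replicate 2 that spanned 2500 bp or more and had at least 50% of their width inside a single replicate 1 hotspot. They were chosen from 216597 autosomal replicate 2 hotspots, so they made up 0.528% of the list, and they held 4.11% of its bases. A hotspot is an interval that the authors called as enriched for cuts by the nuclease DNase I, and a peak is a narrower interval called within it, 150 bp long in nearly every case. The data came from DNase-seq of midbrain tissue of the mouse strain B6NCrl at embryonic day 14.5, with male and female embryos pooled. There was 1 group with 2 biological replicates, entered as different biosamples that share one donor entry, so part of the difference between them may be technical. No other tissue, stage or treatment was analysed here. Width in replicate 2 and the overlap with replicate 1 chose these regions, so both are given as a description and no test was made on them.

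DNase I cuts DNA where nucleosomes are absent or have been displaced by bound proteins. Most accessible sites are short, and each usually marks a promoter, an enhancer or an insulator. Long tracts of accessible DNA are known from the promoters of developmental regulators that sit in CpG-rich sequence, and from groups of neighbouring enhancers. In the embryonic midbrain, progenitors divide beside the ventricle while young neurons settle outside them, so regulators of both states are active in the tissue.

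The strongest replicate 2 peak inside a wide hotspot shows the sequence at which the replicate 2 signal was highest. The strongest replicate 2 peak of each of the 6 widest hotspots is printed here from the plus strand of the mm10 assembly (RefSeq, GRCm38.p6). These 6 cover both promoter and distal regions, where distal means only that no protein-coding start lies within 1000 bp. Each of the distal ones held a start of a long noncoding RNA. Capitals mark exact matches, on either strand, to any of the 11 short motifs listed further on, and lower case marks everything else.
Mir9-2 region, chr13:83731236-83731385: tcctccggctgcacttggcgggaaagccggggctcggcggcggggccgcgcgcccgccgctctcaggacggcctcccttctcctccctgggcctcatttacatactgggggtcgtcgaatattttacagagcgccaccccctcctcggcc
Tnrc18 promoter, chr5:142817816-142817965: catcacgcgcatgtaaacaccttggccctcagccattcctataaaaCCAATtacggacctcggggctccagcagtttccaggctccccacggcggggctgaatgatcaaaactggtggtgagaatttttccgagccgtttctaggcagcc
Mir124a-1 region, chr14:64589576-64589725: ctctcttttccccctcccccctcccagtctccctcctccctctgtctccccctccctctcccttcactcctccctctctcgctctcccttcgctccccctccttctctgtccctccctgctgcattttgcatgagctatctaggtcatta
Ebf3 promoter, chr7:137314376-137314525: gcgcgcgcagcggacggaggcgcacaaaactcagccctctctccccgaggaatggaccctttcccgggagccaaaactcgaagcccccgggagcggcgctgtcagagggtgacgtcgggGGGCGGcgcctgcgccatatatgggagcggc
Gm26872 region, chr5:106469616-106469765: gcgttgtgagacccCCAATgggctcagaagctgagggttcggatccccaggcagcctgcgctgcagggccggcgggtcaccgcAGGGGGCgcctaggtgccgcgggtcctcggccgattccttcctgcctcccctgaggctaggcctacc
Mir124a-2 region, chr3:17798496-17798645: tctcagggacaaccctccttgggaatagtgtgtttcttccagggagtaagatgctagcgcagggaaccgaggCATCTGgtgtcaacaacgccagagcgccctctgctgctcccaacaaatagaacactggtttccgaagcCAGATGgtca
The Ebf3 peak held 18 CpG dinucleotides in its 150 bp and the Mir9-2 peak 16, whereas the Mir124a-1 peak held 2. The Mir124a-1 peak read mostly as runs of c and t. It was centred at -1014.5 bp from the centre of its hotspot, beside a long noncoding RNA start at -970.5 bp. The value of this peak was 140 in replicate 2. The replicate 1 peak that overlapped it had 81, where the highest replicate 1 value of the region was 85. At Gm26872 the overlapping replicate 1 peak had 26 against a highest value of 50, and at Mir124a-2 73 against 90. In the Mir9-2, Tnrc18 and Ebf3 regions the overlapping replicate 1 peak had the highest replicate 1 value too.

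A pair of microRNA families that are abundant in the brain gave 3 of the 6 widest regions. In each case the hotspot held the microRNA hairpin and long noncoding RNA starts, but no protein-coding transcript start. The mature sequences of the miR-9 gene there are shown from RefSeq (GRCm38.p6), with the seed, bases 2 to 8 from the 5′ end, in capitals, together with that of miR-219a, whose gene lay in a wide promoter hotspot of Ring1, a Polycomb subunit gene.
mmu-miR-9-5p, chr13:83738821-83738843, plus strand: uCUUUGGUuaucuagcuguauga
mmu-miR-9-3p, chr13:83738858-83738879, plus strand: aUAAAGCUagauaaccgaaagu
mmu-miR-219a-5p, chr17:34025052-34025072, minus strand: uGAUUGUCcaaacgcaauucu
The 3 seeds differ from each other. A mature sequence was matched for 17 of the 27 microRNA genes inside wide hotspots. The gene of miR-124 is named only.

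The widest region of all lay at chr13:83730479-83743967 and was 13489 bp wide. It held Mir9-2, inside the long noncoding RNA gene C130071C03Rik, and the nearest protein-coding start was that of Mef2c, a transcription factor gene of neurons, 77591 bp away. It contained 24 replicate 1 peaks with values up to 91 and 22 replicate 2 peaks with values up to 138. In replicate 1 the same stretch was called as 3 hotspots, the longest of 8671 bp, which together covered 99.5% of it. The Mir9-2 hairpin, at chr13:83738814-83738885, overlapped a replicate 2 peak centred 99 bp from its middle. No replicate 1 peak overlapped the hairpin, but the nearest was centred 119 bp from its middle. Overlap here turned on a small difference in peak position. The region had 2.09 CpG per 100 bp.

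Mir124a-1 lay in a hotspot of 11261 bp at chr14:64585035-64596295, with 22 replicate 1 peaks and 23 replicate 2 peaks. That hotspot covered the whole of the host transcript gene Mir124a-1hg, chr14:64587331-64593961, and reached past both of its ends. Mir124a-2 lay in a hotspot of 9073 bp at chr3:17790830-17799902, with 14 replicate 1 peaks and 17 replicate 2 peaks, and a single replicate 1 hotspot of 9051 bp matched 99.8% of it. The nearest protein-coding start was 148508 bp away, at Cypt12. Both miR-124 hairpins overlapped a replicate 2 peak and neither overlapped a replicate 1 peak. The nearest peaks were centred 132 bp (replicate 1) and 92 bp (replicate 2) from the middle of Mir124a-1. For Mir124a-2 these distances were 215 and 75 bp. The other copies of these genes fell outside the set. The replicate 2 hotspot at Mir9-3 was 7867 bp wide, but its largest share inside 1 replicate 1 hotspot was 36.5%. The one at Mir124a-3 was 6351 bp wide with a share of 45.0%. Replicate 1 hotspots together covered 96.6% of the Mir9-3 hotspot and 91.1% of the Mir124a-3 hotspot. The hotspot at Mir9-1 was 163 bp wide.

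Across the autosomes 27 of 2054 annotated microRNA genes, 1.31%, lay wholly inside a wide hotspot, in 25 of the 1144. All 1144 together cover 0.153% of autosomal sequence. Of the 27, 7 lay in distal hotspots and 19 in hotspots that held a protein-coding start. The last lay in a flanking one. Among all autosomal replicate 2 hotspots, 222 microRNA genes, 10.8%, lay inside one. Replicate 2 peaks overlapped 15 of the 27 hairpins and replicate 1 peaks 13. The microRNAs were singled out after their values were seen.

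The widest promoter region was that of Tnrc18, a gene for a chromatin-associated protein, at chr5:142811685-142824443. It was 12759 bp wide and held 22 replicate 1 peaks and 26 replicate 2 peaks, with strongest values of 123 and 147. It lay wholly inside the widest replicate 1 hotspot on the autosomes, 14718 bp. The promoter of Ebf3, a helix-loop-helix transcription factor of differentiating neurons, had a region of 11208 bp inside a replicate 1 hotspot of 12072 bp. Its 21 replicate 1 peaks reached 104 and its 23 replicate 2 peaks reached 142. The region had 5.92 CpG per 100 bp, more than the Mir9-2 and miR-124 regions.

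Pou3f3, a POU transcription factor of neural progenitors and neurons, followed with 8813 bp, 18 replicate 1 peaks and 17 replicate 2 peaks. Next came the zinc finger gene Zfp532 with 7822 bp, Mex3b, which encodes an RNA-binding protein, with 7584 bp, and the imprinted gene Zdbf2 with 7550 bp. Zdbf2 had the weaker peaks of these, up to 55 in replicate 1 and 121 in replicate 2. Mex3b had the strongest, up to 140 in replicate 1 and 149 in replicate 2. Its peak numbers also differed most, with 11 in replicate 1 and 16 in replicate 2.

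**Figure D1:**
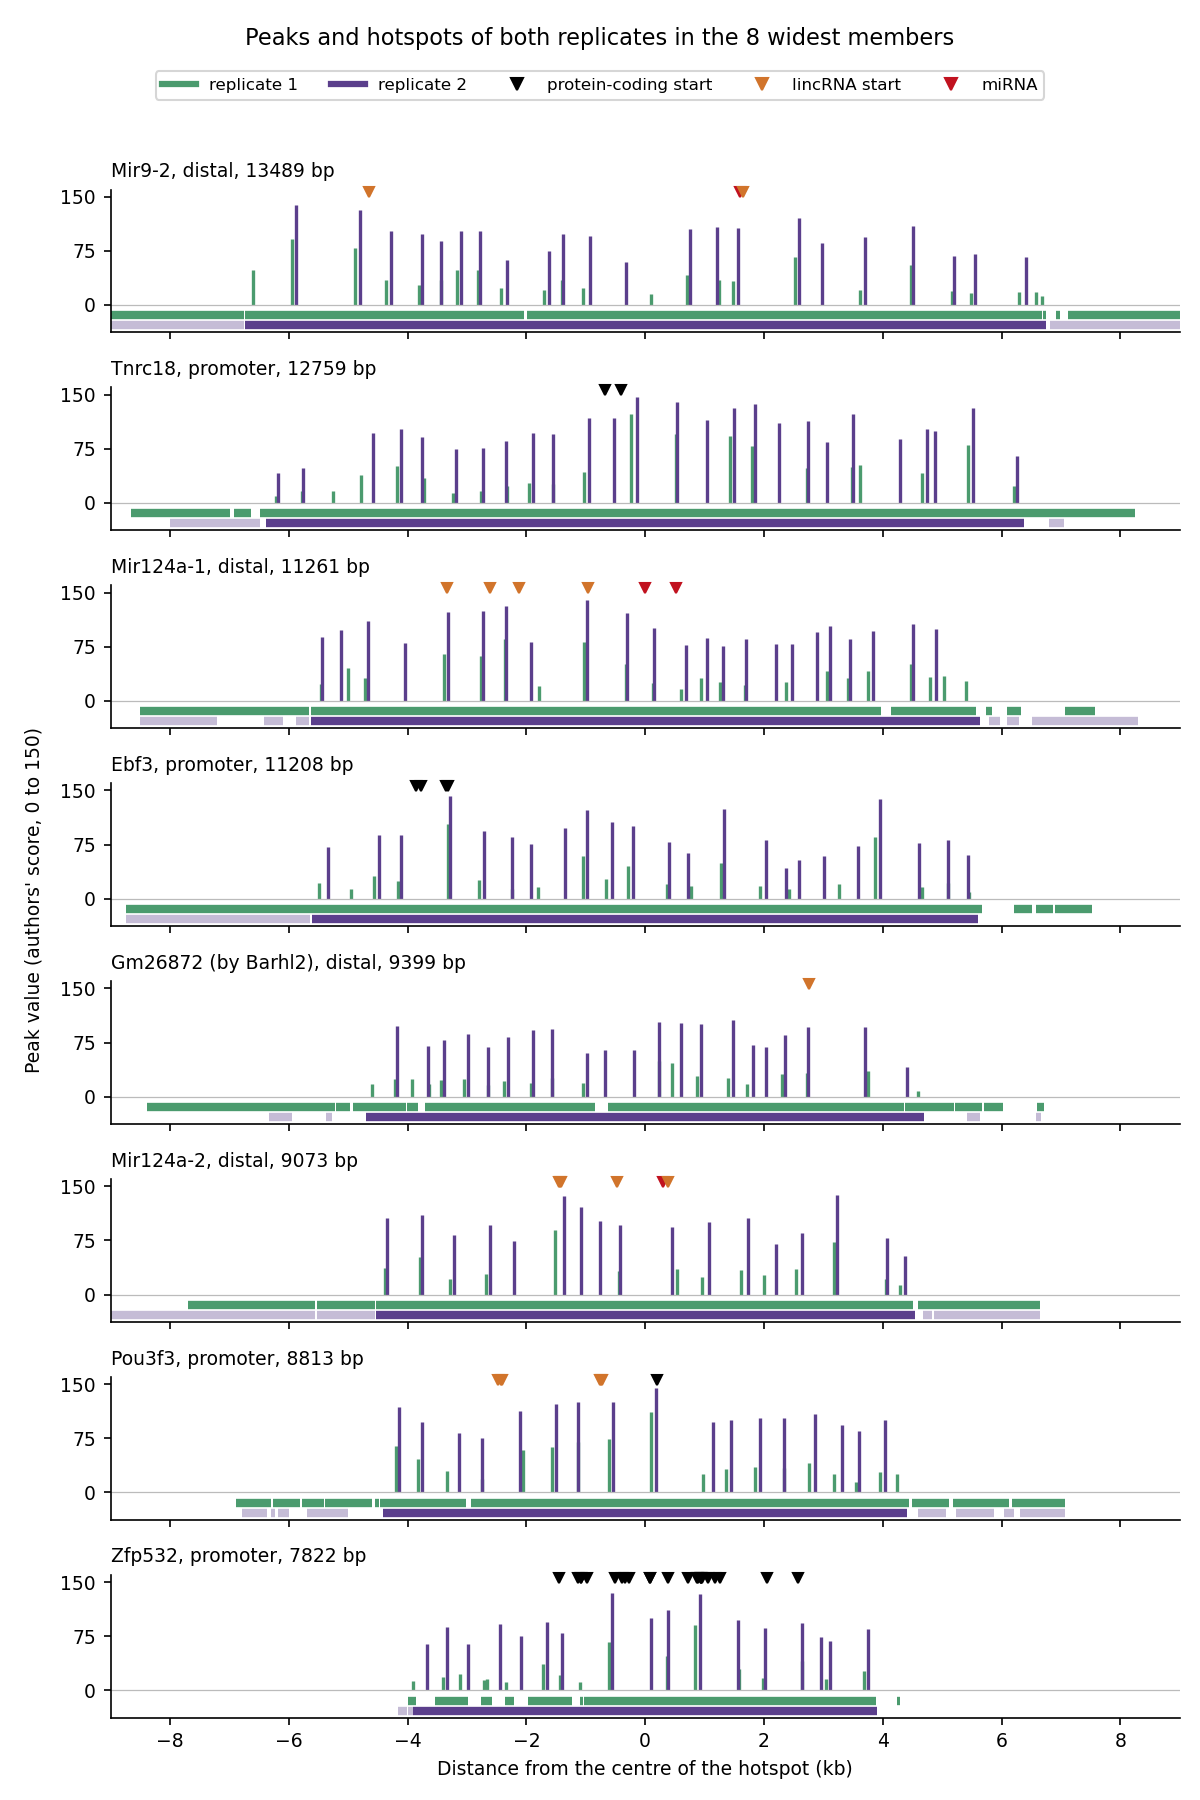
Peaks and hotspots in the 8 widest regions, by distance from the centre of the replicate 2 hotspot in kb. Line heights are the authors' peak values in each replicate (lines moved sideways by 30 bp to part the replicates), bars underneath are hotspots (neighbouring replicate 2 hotspots are pale), and triangles are transcript starts. The Tnrc18 and Ebf3 regions are 1 interval in both replicates, whereas the Mir9-2 region is 3 intervals in replicate 1.

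Of the 1144 regions, 48 were 5000 bp or wider. Their genes included Pcdh7, a protocadherin, with 7099 bp, and Ccnd1, which encodes cyclin D1, with 6555 bp. Marcks, whose product binds actin and the membrane, had 6496 bp, and Tle3, a Groucho corepressor, had 6363 bp. The guidance molecule gene Sema6a had 6278 bp, the bromodomain gene Brd2 had 6164 bp, and Gad2, encoding a GABA-synthesising enzyme, had 5914 bp. Distal regions were 4 of the 10 widest and 15 of these 48, 31.2%, against 15.6% of all 1144. Most members were far narrower. The median width was 2917 bp, with quartiles of 2670 and 3374 bp, against a median of 251 bp for all autosomal hotspots.

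Column 9 of the hotspot lists, a −log10 q value, could not order these regions. All 1144 stood at its cap of 100 in replicate 2, where 36.6% of all autosomal hotspots did. In replicate 1 the hotspot that shared most with the region was at the cap for 1143 of them, 99.9%, against 31.3% over all replicate 2 hotspots. The exception was an interval of 2688 bp at chr12:91683334-91686021, whose replicate 1 value was 6. It overlapped the endocytic adaptor gene Ston2 and the genes Gm8378 and Gm16876. It had 5 peaks in each replicate, with strongest values of 29 in replicate 1 and 92 in replicate 2. Width and cap went together across the whole list. The share at the cap was 21.8% for hotspots under 500 bp, 84.3% from 500 to under 1000 bp and 98.3% from 1000 to under 1500 bp.

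The rule leaned on replicate 2, and the replicates were cut differently. Having 50% of the width inside 1 replicate 1 hotspot was met by 52.7% of all autosomal hotspots and by 56.9% of the 2010 that were 2500 bp or wider. The members had a median of 2 replicate 1 pieces, and the other 866 wide hotspots had 4. All replicate 1 hotspots together covered a median of 90.3% of a member and 70.9% of a wide hotspot outside the set. The best replicate 1 hotspot had a median width of 2293 bp at the members, and 1083.5 bp at the other wide hotspots. It reached 2500 bp itself at 460 members, 40.2%, and exceeded the replicate 2 width at 175, 15.3%. A region wide in both lists by the same minimum was therefore the smaller part of the set.

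At the limit of the width rule, the narrowest members were the shared promoter of Cdc40 and Wasf1 and an interval near Cipc, each 2500 bp wide with 4 peaks in either replicate. At 2501 bp, 1 overlapped the noncoding gene 9330198N18Rik, with 6 peaks in either replicate, and 1 was the promoter of Ubr2, with 5 peaks in either replicate. Just outside it, 3 promoter hotspots were 1 bp narrower than the limit, with best shares in replicate 1 of 81.4%, 69.0% and 46.9%. Numbers per chromosome ran from 34 on chromosomes 15 and 16 to 89 on chromosome 2. As a share of a chromosome's hotspots they ran from 0.386% on chromosome 15 to 0.684% on chromosome 19.

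The wide hotspots of this set were mostly at promoters. Of the 1144, 954 held a protein-coding transcript start, 83.4% (95% exact binomial interval 81.1 to 85.5, counting error only), where 6.73% of all autosomal hotspots did. The distal ones, with no such start within 1000 bp, numbered 179, or 15.6%, where 89% of all autosomal hotspots were distal. The last 11 flanked a start. A wide interval has more room for a start than a narrow one, and the promoter share climbed with each width class of the whole list. It was 0.918% under 500 bp, 7.76% from 500 to under 1000 bp, 41.6% from 1000 to under 1500 bp, 68.3% from 1500 to under 2000 bp and 77.4% from 2000 to under 2500 bp. Among the wide hotspots outside the set it was 78.9%. Among autosomal replicate 1 hotspots of 2500 bp or more it was 56.3%. The strongest replicate 2 peak is a single position at any width. It lay within 1000 bp of a protein-coding start in 77.7% of the members, against 10.2% of all autosomal hotspots. This share climbed with width too, from 4.87% under 500 bp to 75.8% from 2000 to under 2500 bp. For wide hotspots outside the set it was 69.1%.

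**Figure D2:**
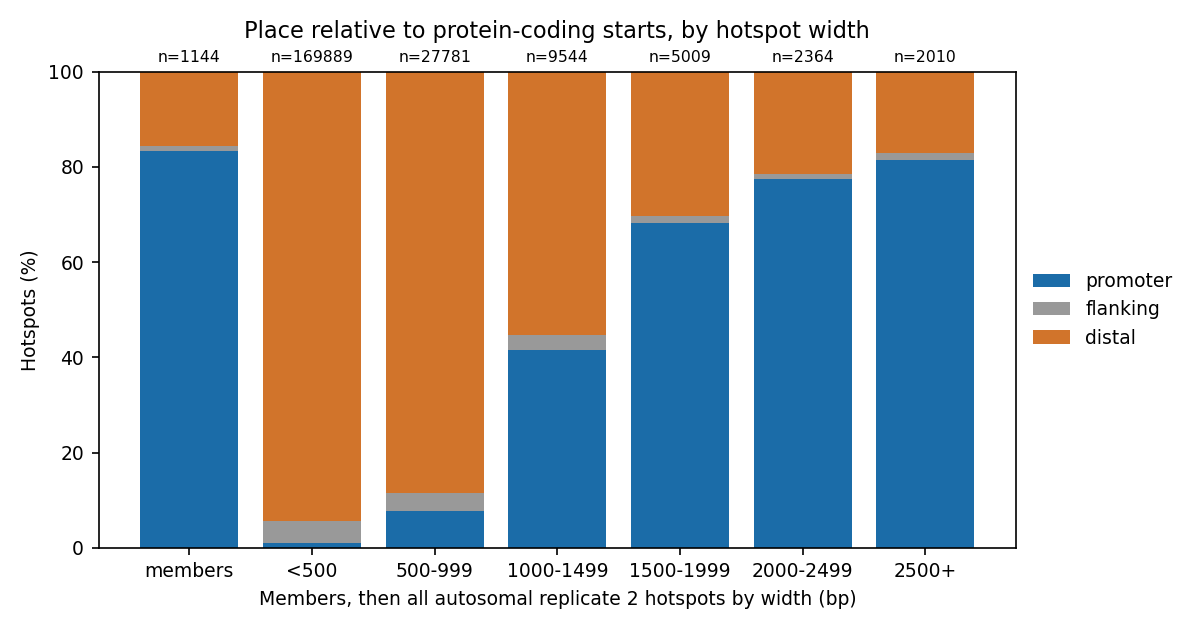
Share of hotspots in percent that hold a protein-coding start (promoter), hold none within 1000 bp (distal) or lie between (flanking), for the 1144 members and for all autosomal replicate 2 hotspots by width in bp. The promoter share is 83.4% in the members and climbs from 0.918% in the narrowest class to 81.4% in the widest.

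The members held a start of 1044 protein-coding genes, 5.04% of the 20698 on the autosomes. Any autosomal replicate 2 hotspot held a start of 13984 of them, 67.6%. A single gene started in 855 members and a pair of genes in 99, and in 95 of the members the starts lay on both strands. Where 1 gene started, the interval reached further into the gene than away from it. The median was 1852 bp downstream of the start (quartiles 1517 and 2289.5) and 1116 bp upstream (quartiles 796 and 1490). The downstream side was the longer one in 659 of the 855, 77.1%. Of the peaks in these regions, 62.8% in replicate 2 and 61.8% in replicate 1 lay downstream. The strongest peak lay within 150 bp of the start in 433 regions by replicate 2 and in 423 by replicate 1.

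Peaks have a fixed length in nearly all cases, so a wide hotspot has room for many. The members held a median of 5 peaks in each replicate, with quartiles of 4 and 7 in replicate 1 and of 4 and 6 in replicate 2. The lowest number was 2 and the highest 24 in replicate 1 and 26 in replicate 2. Neighbouring peak centres were a median of 480 bp apart in both replicates, with quartiles of 360 and 640 bp in replicate 1 and of 360 and 660 bp in replicate 2. Per kilobase of hotspot there were 1.79 replicate 1 peaks and 1.70 replicate 2 peaks at the median. Over all autosomal hotspots the medians were 1.75 in replicate 1 and 3.91 in replicate 2, and the median hotspot there held 1 peak. The replicate 2 value came from the narrowest hotspots. It was 4.74 under 500 bp, 1.81 from 500 to under 1000 bp and 1.62 from 2000 to under 2500 bp.

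Peak number followed width. Spearman's rho over the 1144 regions was 0.683 between width and replicate 2 peaks and 0.627 between width and replicate 1 peaks. A wider interval has more room for peaks, so these values describe the lists and carry no test. Peaks per kilobase, which takes width out, had a rho of 0.350 between the replicates, while the value of the strongest peak had 0.904. The number of peaks was the same in both replicates for 346 regions and within 1 for 853, 74.6%. At least 10 peaks were called in 55 regions in replicate 1 and in 55 in replicate 2, and 42 regions had 10 in both.

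**Figure D3:**
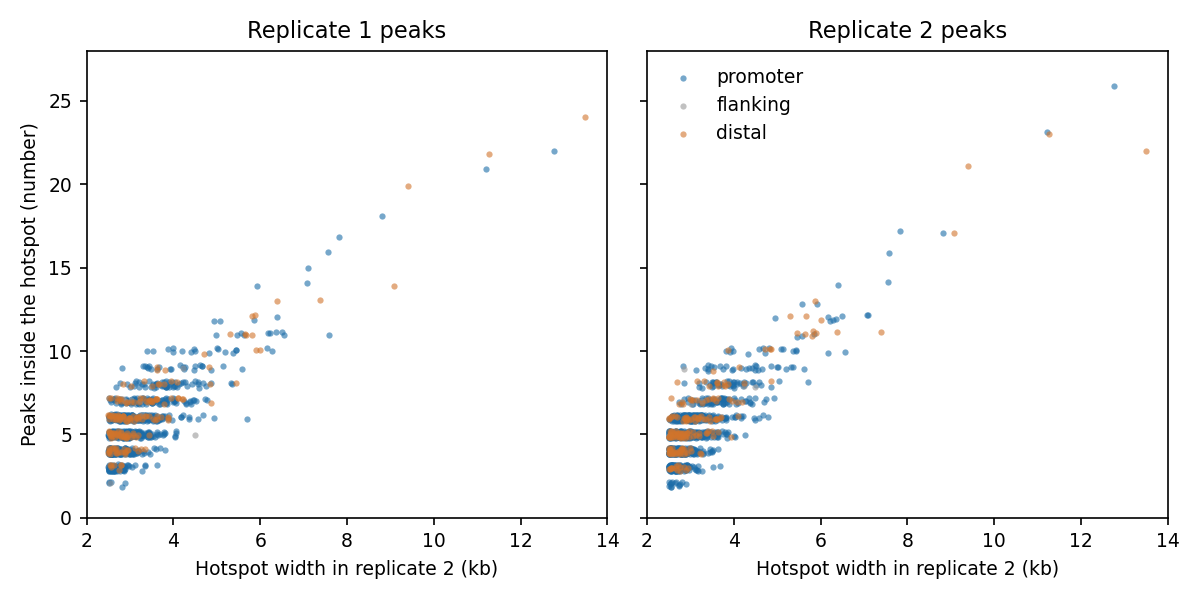
Number of peaks inside each of the 1144 members against its replicate 2 width in kb, for replicate 1 peaks and replicate 2 peaks, with points moved slightly along the vertical axis to separate them. The points climb together in both panels, up to 24 peaks in replicate 1 and 26 in replicate 2, and both promoter and distal members reach the top.

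The peaks inside these regions are described beside all peaks, with the reminder that overlap with replicate 1 hotspots chose the regions, so a high shared share is partly built in. The 6569 replicate 1 peaks inside had a median value of 34, against 6 for all autosomal replicate 1 peaks, and 65.8% of them were in the top 10% of that list. The 6281 replicate 2 peaks inside had a median value of 101, against 52 for all, and 39.5% were in the top 10%. A replicate 2 peak overlapped 79.7% of the replicate 1 peaks inside, against 24.8% of all replicate 1 peaks. In the other direction, 82.6% of the replicate 2 peaks inside overlapped a replicate 1 peak, against 64.1% of all. The strongest peaks of both replicates were centred within 150 bp of each other in 962 regions, 84.1%. Values are not on a common scale between the replicates, and read depth is unknown, so no ratio was formed.

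Base composition separated promoter members from distal ones. Promoter members had a median of 5.81 CpG per 100 bp and 57.7% G or C. Distal members had 2.53 CpG per 100 bp and 48.8% G or C. All autosomal hotspots had 1.41 CpG per 100 bp and 47.9%, and the genome 0.851 CpG per 100 bp and 41.9%. Under 2 CpG per 100 bp were found in 63 distal members, 35.2%, and in 14 promoter members, 1.47%. Repeat-masked bases had medians of 9.85% in promoter members, 12.1% in distal members and 7.29% in all hotspots, and made up 33.5% of the genome. Some distal members were as CpG-rich as promoters. One of 5299 bp at chr13:107887223-107892521 had 8.53 CpG per 100 bp, with its nearest protein-coding start, that of Smim15, 151925 bp away.

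**Figure D4:**
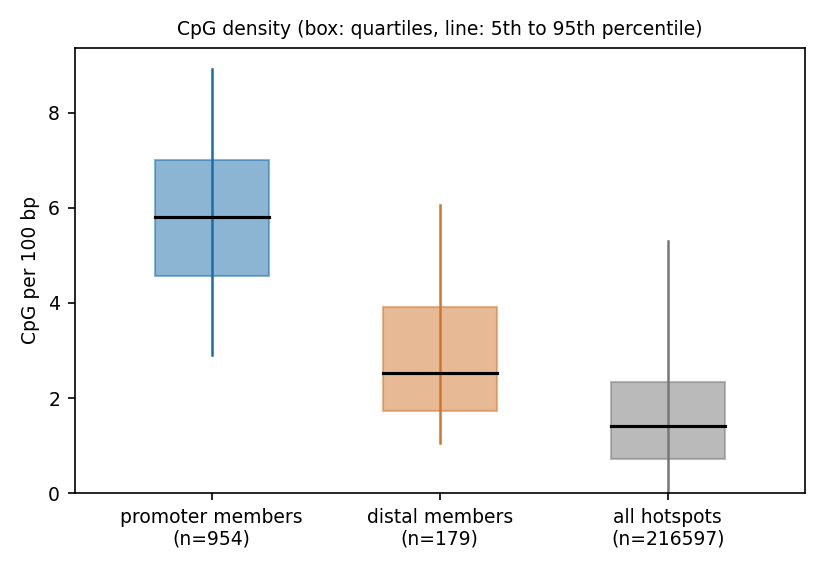
CpG per 100 bp of promoter members, distal members and all autosomal replicate 2 hotspots, with the quartiles as a box, the median as a black line and the 5th to 95th percentiles as a vertical line. The medians are 5.81, 2.53 and 1.41.

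Short motifs were counted as exact matches on either strand in the 150 bp of the strongest replicate 2 peak, beside all autosomal replicate 2 peaks of 150 bp. The 11 were GGGCGG (the core of a GC box, bound by SP factors), CCAAT (NFY), AGGGGGC (within the CTCF motif), CCGGAAG (ETS factors), TGACGTCA (CREB), the palindromic NRF1 motif, GTTGCCATG (part of the RFX motif), TAATTA (homeodomain), CAGCTG and CATCTG (E-boxes) and ACAAAG (SOX). GGGCGG and AGGGGGC share a run of G and can overlap by a few bases. GGGCGG was present in 58.9% of the strongest peaks, against 9.25% of all peaks. Set against peaks in a roughly like position, it was in 65.5% of promoter members and 33.5% of all peaks within 1000 bp of a protein-coding start. The strongest peak itself lay that near a start in 93.1% of promoter members, so the positions are not fully alike. In distal members GGGCGG was in 25.7%, against 4.92% of all peaks away from starts. CCAAT was in 31.2% of promoter members, against 19.1% of all peaks near a start, and in 19.6% of distal members, against 19.01% of peaks away from one.

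For the other motifs, shares over all members and all peaks mix positions, since most members are at promoters and most peaks are not. Roughly like positions are therefore compared, as above. CATCTG, the E-box of proneural factors, was in 2.62% of promoter members, against 7.73% of all peaks near a start, and in 10.1% of distal members, against 15.1% of peaks away from one. TAATTA was in 0.629% of promoter members, against 1.41%, and in 2.23% of distal members, against 5.49%. CAGCTG was in 7.55% of promoter members, against 10.02%, and in 13.4% of distal members, against 14.3%. ACAAAG was in 5.97% of promoter members, against 8.86%, but in 17.9% of distal members, against 15.2%. AGGGGGC was in 16.6% of promoter members, against 8.25%, and in 7.82% of distal members, against 4.32%. TGACGTCA was in 3.25% of promoter members, against 1.31%, and in 1 distal member. CCGGAAG was in 4.82% of promoter members, against 5.94%, and in 5 distal members, 2.79%, against 0.964%. The NRF1 motif was in 6 promoter members, 0.629%, against 0.599%, and in no distal one. GTTGCCATG was in 0.734% of promoter members, against 0.559%, and in 5 distal members, 2.79%, against 1.16%. Peaks in the members were also stronger, and the members were richer in CpG, than hotspots in general, and the part of either in these counts was not tested. A match is a description of the letters and shows no bound factor.

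Genes of the neuronal and progenitor lists were often covered. The neuronal list had 11 of 31 genes with a start inside a member, 35.5%, where the share of all protein-coding genes was 5.04%. Besides Ebf3 and Gad2 they were the microtubule protein genes Map2, Mapt and Stmn2, the RNA-binding protein gene Elavl4, the synaptic Snap25, the intermediate filament genes Nefm and Ina, and the transcription factor genes Insm1 and Nhlh2. Widths ran from 2522 bp at Ina, with 4 peaks in each replicate, to 11208 bp at Ebf3. Mapt, which encodes tau, had 4287 bp with 7 replicate 1 peaks and 8 replicate 2 peaks. Insm1 had 4232 bp and 9.03 CpG per 100 bp.

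The neural progenitor list had 10 of 32 genes, 31.2%. They were Sox4, Sox11, Pax6, Hes6, Hey1, Id4, Notch1, Zic4, Zic5 and Rfx4. Zic4 had the widest region, 5629 bp, with 11 replicate 1 peaks and 9 replicate 2 peaks. Notch1, the receptor that holds progenitors undifferentiated, had 4571 bp with 8 replicate 1 peaks and 6 replicate 2 peaks. Pax6 had the fewest peaks, 3 in each replicate over 2870 bp. At Sox4 and Rfx4 the replicate 1 hotspot was the wider one, 5037 bp against 2729 bp at Sox4 and 6812 bp against 3174 bp at Rfx4.

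Midbrain and isthmus regulators were covered less. Of 41, 3 had a start inside a member, 7.32%, close to the 5.04% of all genes. Among them were Pax3 with 6170 bp and Barhl2 with 4027 bp, both homeobox transcription factor genes. In replicate 2 alone, 19 of the 41 started in a hotspot of 2500 bp or more, 46.3%, against 8.46% of all genes. In replicate 1 alone it was 6 of 41, 14.6%, against 2.9% of all genes. The condition on replicate 1 thus left out 16 of the 19. Irx1 had 9089 bp, of which the best replicate 1 hotspot held 36.1%. Otx2, the gene that defines the forebrain and midbrain territory, had an interval of 5435 bp with a best share of 10.1%. En2, of the midbrain-hindbrain boundary, had 2532 bp with a best share of 26.6%. The median of the best share over the intervals of these genes was 26.6% and the median covered by all replicate 1 hotspots together was 71.1%.

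The same happened at several progenitor and neuronal genes. Zic2 had 12441 bp with 27 replicate 1 peaks and 23 replicate 2 peaks, and Gad1, which encodes a GABA-synthesising enzyme, had 11350 bp with 20 and 23. Neither was a member. Replicate 1 was cut into 15 pieces at Zic2 and 11 at Gad1, the best of them with 34.0% of the Zic2 interval and 28.1% of the Gad1 interval. Sox2 had 6733 bp with 14 peaks in each replicate and 9 pieces. All replicate 1 hotspots together covered 84.3% of the interval at Zic2, 88.2% at Gad1 and 92.4% at Sox2.

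Forebrain regulators had 4 of 25 genes in members, 16%. Among them were Dlx6 with 7081 bp, Dlx2 with 5564 bp and Lhx2 with 2585 bp. Of the 39 Hox genes, which pattern more caudal tissue, none had a start in a member, and 9 had one in any replicate 2 hotspot. Immediate early genes had 5 of 22, 22.7%, namely Myc, Jun, Egr3, Klf6 and Dusp1, with 2826 bp at Dusp1 to 5455 bp at Myc. Housekeeping genes had 2 of 22, Gapdh with 3533 bp and Polr2a with 2570 bp. Cell cycle genes had 1 of 23, Ccnd1.

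For lists of other tissues and cell types, the background of 5.04% amounts to less than 1 gene a list, so counts of 0 or 1 are near it. Tal1, a transcription factor of blood formation that is also expressed in midbrain neurons, was the single erythroid gene of 14, 7.14%, with 3699 bp. None of the 15 endothelial, 15 microglia and myeloid, 15 liver, 15 skeletal muscle and 15 keratinocyte genes started in a member. In any replicate 2 hotspot the counts were 10, 3, 1, 6 and 7 genes in that order. In replicate 2 hotspots of 2500 bp or more, 2 of the 15 endothelial genes had a start, 13.3%, against 8.46% of all genes, and none of the myeloid, liver, muscle and keratinocyte genes did. The 14 lists are described by counts, with no test.

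**Figure D5:**
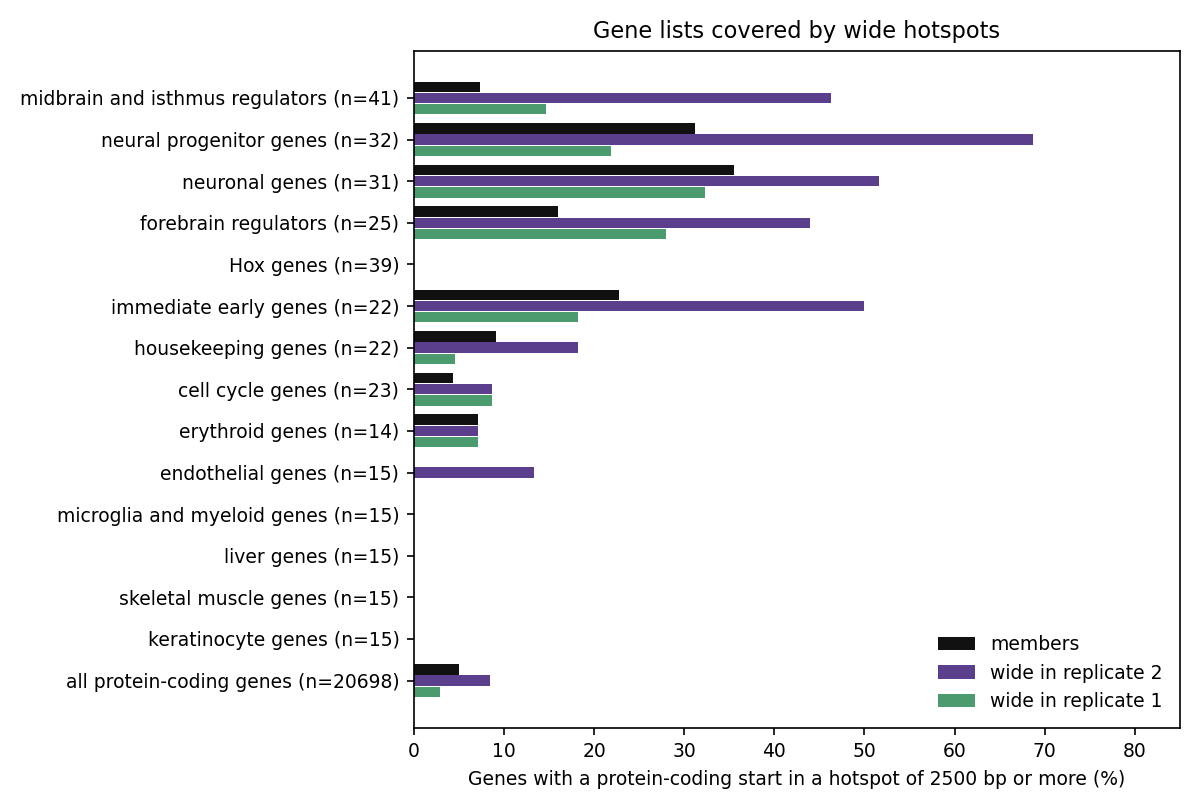
Percentage of the genes of each list with a protein-coding start in a member, in any replicate 2 hotspot of 2500 bp or more, or in any replicate 1 hotspot of that width. Neuronal genes stand at 35.5%, 51.6% and 32.3%, and midbrain and isthmus regulators at 7.32%, 46.3% and 14.6%, against 5.04%, 8.46% and 2.9% of all protein-coding genes.

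Gene families, grouped by symbol after the results were seen, differed in the same descriptive way. Zic had 2 of 4 genes in members, Ebf 2 of 4 (Ebf3 and Ebf4) and Nfi, the nuclear factor I family of glial and neuronal regulators, 2 of 4 (Nfia and Nfib). Sox had 4 of 18, Pou 3 of 14 and the Eph receptors, which guide retinal axons to the midbrain, 4 of 14. Those 4 were Epha4, Epha7, Ephb1 and Ephb2, and their ligand gene Efna5 had a region of 5372 bp. Irx had 0 of 6 although every Irx gene started in a replicate 2 hotspot. That hotspot was 9089 bp wide at Irx1, 5238 bp at Irx2, 4390 bp at Irx3 and 5489 bp at Irx5. These were left out by the condition on replicate 1, with best shares of 36.1%, 25.8%, 49.5% and 47.5% in that order. All replicate 1 hotspots together covered 71.1% of the interval at Irx1, 78.2% at Irx2, 85.6% at Irx3 and 95.3% at Irx5. Zfp genes had 19 of 358, 5.31%, near the background of 5.04%. Cytosolic ribosomal protein genes had 2 of 76, while 73 of the 76 started in a replicate 2 hotspot. Keratins had 0 of 49 and olfactory receptors 0 of 1085.

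The 179 distal members lay a median of 39802 bp from the nearest protein-coding start, with quartiles of 6933 and 122986 bp. Over 100000 bp away were 48 of them, 26.8%. Of the 179, 57 overlapped the body of a protein-coding gene and 38 of these touched an exon. The other 122, 68.2%, lay outside protein-coding gene bodies. A start of a long noncoding RNA gene lay in 50, 27.9%, against 0.859% of all distal hotspots, which are far narrower. Neither a coding body nor such a start was found for 83.

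Some distal members lay beside developmental regulators. Sox2 was the nearest gene of 3, all within the overlapping noncoding gene Sox2ot, at chr3:34637456-34643457, chr3:34655958-34659632 and chr3:34659639-34666025. The interval over the Sox2 start itself was not a member. These 3 held 31 replicate 1 peaks and 29 replicate 2 peaks in 16064 bp. A region of 9399 bp lay over the noncoding gene Gm26872, 5379 bp from the Barhl2 start. It held 20 replicate 1 peaks and 21 replicate 2 peaks. Their values reached 50 in replicate 1 and 106 in replicate 2. The medians for the strongest peak of a member were 97 and 140. Sox4, Pou3f3 and Mef2c were each the nearest gene of 4 distal members, and Pou3f2, Chd7 and Sorl1 of 3. The nearest gene could be far. A Pou3f3 one of 3065 bp lay 435808 bp from its start, and the Mir9-2 region 77591 bp from that of Mef2c. A gene of the progenitor list was nearest to 15 distal members, 8.38%, against 0.616% of all autosomal distal hotspots. A midbrain regulator, Barhl2, Foxa2 or Meis2, was nearest to 6, 3.35%, against 1.02%. Members of a group at 1 locus share their nearest gene, so these counts hold fewer loci than regions. The nearest gene is a position and not a shown target.

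Some members came in groups. Within 50000 bp of another member lay 124, 10.8%, in 45 pairs and 10 groups of 3 or more. The Mir9-2 group had 4 members over chr13:83714935-83743967, with 48 replicate 1 peaks and 49 replicate 2 peaks in 27640 bp. Pou3f2, a POU factor of neurons, had 4 members with 30 peaks in each replicate. Groups of 3 lay at Barhl2, Sox2, Pou3f3, Meis2, Nr2f1, Rai1 and Sox4. Members at Rai1, a chromatin protein gene, were all at promoters. At Nr2f1, which encodes the nuclear receptor COUP-TF1, 2 of the 3 were distal. Such groups are in part a matter of where the intervals were cut. Within Sox2ot, 2 neighbouring members were separated by a few base pairs, and a neighbouring hotspot at 20 bp or less was found for 303 of the 1144 members, 26.5%, and for 15.4% of all autosomal replicate 2 hotspots.

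Some members held only peaks that were weak beside those of other members. Those named here were picked for that after the values were seen. Median strongest values over all members were 97 in replicate 1 and 140 in replicate 2. Over all autosomal replicate 2 hotspots that held a peak of the replicate, the medians were 20 and 49. A weak member lay in Isl1, a motor and sensory neuron factor, with 16 in replicate 1 and 71 in replicate 2. Near Foxa2, of the floor plate, the values were 19 and 77, and at Evx1, of spinal interneurons, 25 and 74. These are wide intervals of many peaks that are weak for members. Their strongest replicate 2 values still lay above the replicate 2 median over all hotspots, 49. In replicate 1 the values at Isl1 and near Foxa2, 16 and 19, lay below the median of 20, and that at Evx1, 25, above it. The median hotspot held 1 peak, so a highest value among several peaks has more room to be high. In a tissue sample, fewer cells with the region open and a less open region in each cell cannot be told apart.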

How the data were processed

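DNase-seq peak and hotspot lists of 2 replicates of 1 group were used as deposited, with groups and replicate numbers from the labels. Coordinates are 1-based on mm10, per the labels. Lists were called per replicate. Which aligner and which caller made them is not given in the sources used here. Column 9 of the deposited hotspot lists holds −log10 q values, from the limit at q = 0.05 to a cap of 100. The deposited peak lists give a score, a whole number of at most 150 whose unit is not stated. The score was used only within a replicate.

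Replicate 1 held 633971 hotspots and 710176 peaks, and replicate 2 held 222362 hotspots and 267958 peaks. Median autosomal widths of hotspots were 201 bp in replicate 1 and 251 bp in replicate 2. Read depth is unknown, so no value has a depth interval. The exact binomial interval covers counting error only.

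Hotspots of replicate 2 were kept at 2500 bp or more on the 19 autosomes with at least 50% of the width in 1 replicate 1 hotspot. A peak counted inside by its centre. Starts were transcript starts of GENCODE M21, and sequence was GRCm38.p6. Motifs were exact matches on either strand. Counts were made with pandas 2.3.3 and numpy 2.4.6 in Python 3.11.15, intervals with scipy 1.17.1 and figures with matplotlib 3.10.9. The selection was tested on simulated intervals. The members, the 14 gene lists and the motifs were chosen with earlier results of these data known. Named are the 10 widest and 10 widest distal members, those with most peaks, those of list genes, gene bodies with several members and members at the limits. Other named ones were chosen after their values were seen. Some members and genes are not reported here.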

Additional observations from a re-analysis of the deposited data

How the results depend on the processing

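Of 70 alternative values, 48 stayed within 1.5 times the count or within the counting interval. A width minimum of 2000 bp gave 2729 regions with 2466 genes, and 3000 bp gave 488 with 429 genes and a median of 5.15 CpG per 100 bp. Any overlap with replicate 1 gave 2007 regions and 1751 genes. A 90% share gave 305 regions, 253 genes and a promoter share of 77.4%, and 50% of the width in all replicate 1 hotspots together gave 1863 and 1661. With either replicate left out, the number of regions ran from 998 to 2010, genes from 601 to 1752, and the promoter share from 56.3% to 81.4%. The share at the cap ran from 92.6% to 100%, CpG per 100 bp from 3.71 to 5.24, and the lower values came from replicate 1 alone. The promoter share was 74.2% with gene 5′ ends only and 89.4% with starts of all gene types.

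Joining neighbouring hotspots across gaps of up to 20 bp in both replicates, chosen after seeing the data, gave 1474 regions, 1344 genes and a promoter share of 82.8%. Gaps of up to 100 bp gave 1819 regions and 1627 genes. The joined Mir9-2 interval was 25578 bp with the larger gap. With the smaller gap no region that met the rule held Mir9-2. With the smaller and the larger gap, genes with a start inside were 5 and 8 of 41 midbrain and isthmus regulators, 17 and 21 of 31 neuronal genes, 11 and 9 of 32 progenitor genes, 6 and 8 of 22 immediate early genes and 4 and 4 of 22 housekeeping genes. No paired analysis was possible because there was 1 group.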

Other observations

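Width in replicate 1 picked intervals that often touched no member, though nearly all touched a replicate 2 hotspot. Of its 998 autosomal hotspots of 2500 bp or more, 535 touched no member, 53.6%, and 212 of these, 39.6%, held a protein-coding start. Those 535 had a median of 2.12 CpG per 100 bp, against 5.29 for the 463 that touched a member. Among the widest of them were 7642 bp at Chd2, a chromatin remodeller gene, 6946 bp at Barhl1, a homeobox gene of the midbrain and cerebellum, and 6922 bp at Crmp1, which encodes a protein of axon guidance. Barhl1 had 13 replicate 1 peaks and 5 replicate 2 peaks there, and replicate 2 hotspots covered 36.9% of it. At Chd2 they covered 59.6% and at Crmp1 69.4%. An interval over Lhx5, a LIM homeobox gene, was 5538 bp wide and 96.8% covered, but in 4 replicate 2 pieces. Only 7 of the 998 touched no replicate 2 hotspot. The intervals named here were chosen after their values were seen.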
